A study of Mus musculus with 8 samples.

Results

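Hox genes were followed across the cell types of the adult mouse kidney, from the glomerulus along the nephron to the collecting duct and the urothelium. All genes whose symbol is Hox, a cluster letter from a to d and a number were taken, which gave 39 of the 32285 genes in the count tables. Of these, 11 belong to HoxA, 10 to HoxB, 9 to HoxC and 9 to HoxD. The nuclei came from 8 male mice on a C57BL/6J background, 2 for each pairing of a genotype with a time of day. Ctrl mice were Bmal1 lox/lox, with lox sites around the clock gene Bmal1 (Arntl). cKOt mice were their Bmal1 lox/lox / Pax8-rtTA / LC-1 littermates, in which doxycycline turns on Cre recombinase through a Pax8 promoter that is active in renal tubules. Mice of both genotypes drank doxycycline (2 mg/ml) with sucrose (20 mg/ml) for 2 weeks from 8 weeks of age, lived under 12 h of light and 12 h of dark, and were sacrificed at 14 weeks at ZT4 (in the light phase) or ZT16 (in the dark phase).

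Hox proteins are homeodomain transcription factors that give cells their position along the body axis of the embryo. Within each of the 4 clusters the genes lie in a row, and genes with the same number in different clusters (paralogs) descend from 1 ancestral gene. Low numbers are active early and towards the head, high numbers late and towards the tail. In the kidney, Hoxa11, Hoxc11 and Hoxd11 are known for their part in the formation of the metanephros, where their proteins act with Pax2 and Eya1. The nephron, from podocytes to the connecting tubule, arises from the metanephric mesenchyme, whereas the collecting duct and the urothelium of the pelvis arise from the ureteric bud.

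In the GENCODE annotation on GRCm39, to which all 39 genes were joined by Ensembl identifier, HoxA lies at chr6:52132570-52237822 on the minus strand. HoxB lies at chr11:96085106-96259082, HoxC at chr15:102829538-102945278 and HoxD at chr2:74498654-74595486, all on the plus strand. The genes sit so closely that their transcripts overlap. Hoxa3 spans Hoxa4, Hoxa5 and Hoxa6, Hoxc5 spans or touches Hoxc6, Hoxc8, Hoxc9 and Hoxc10, and Hoxd3 and Hoxd4 start within a few bases of each other, so that 11 members overlap another member on the same strand. Moreover, 26 members have an antisense gene, for example Hoxb5os opposite Hoxb5 to Hoxb9. Counts of these neighbours are therefore uncertain as to which gene gave the read, whereas sums over a cluster depend less on it.

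Promoters of 22 of the 39 genes were found in the RefSeq table (build GRCm38.p6), as 24 sequences from 250 bases before to 50 bases after a start site. The 4 below are shown because their genes carry the results on segments that follow: the leading HoxA member, and the 3 members of paralog group 4 with a sequence, of which Hoxc4 was lower and Hoxb4 and Hoxd4 were higher in the collecting duct than in the proximal tubule. Capitals mark the E-box CACGTG, the palindrome bound by the CLOCK and BMAL1 proteins.
Hoxa3, chr6:52213018-52213317, minus strand: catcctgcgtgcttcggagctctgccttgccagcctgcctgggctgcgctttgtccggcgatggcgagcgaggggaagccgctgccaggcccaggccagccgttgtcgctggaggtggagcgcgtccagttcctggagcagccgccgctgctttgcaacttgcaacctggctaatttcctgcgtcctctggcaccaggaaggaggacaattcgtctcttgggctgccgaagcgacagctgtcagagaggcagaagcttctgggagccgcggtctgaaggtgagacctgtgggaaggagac
Hoxb4, chr11:96318017-96318316, plus strand: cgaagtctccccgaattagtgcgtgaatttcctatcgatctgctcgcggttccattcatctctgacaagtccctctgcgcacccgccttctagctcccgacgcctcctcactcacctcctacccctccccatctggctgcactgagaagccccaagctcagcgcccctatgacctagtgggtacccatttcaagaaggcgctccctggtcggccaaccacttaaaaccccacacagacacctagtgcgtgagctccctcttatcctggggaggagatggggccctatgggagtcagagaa
Hoxc4, chr15:103034145-103034444, plus strand: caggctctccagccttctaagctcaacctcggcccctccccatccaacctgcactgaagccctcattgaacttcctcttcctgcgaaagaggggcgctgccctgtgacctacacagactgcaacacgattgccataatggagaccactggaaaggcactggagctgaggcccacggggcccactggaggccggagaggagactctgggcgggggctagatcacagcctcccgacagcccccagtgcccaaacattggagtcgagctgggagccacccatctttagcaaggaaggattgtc
Hoxd4, chr2:74721728-74722027, plus strand: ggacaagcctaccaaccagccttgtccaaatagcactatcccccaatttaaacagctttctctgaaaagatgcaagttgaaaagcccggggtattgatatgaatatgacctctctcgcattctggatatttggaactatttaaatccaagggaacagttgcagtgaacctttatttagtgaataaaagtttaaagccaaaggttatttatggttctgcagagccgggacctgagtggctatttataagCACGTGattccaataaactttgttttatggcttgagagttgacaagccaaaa
Of these, the window of Hoxd4 holds 1 E-box, which starts at base 249 of the window. Over the 24 Hox promoters, the E-box was found in 5 (Hoxd1, Hoxd4, Hoxd10, Hoxd11 and Hoxd13), and over all 32851 promoters in 7.15%. The motif TGATNNAT, searched on both strands as a joint site of PBX and HOX proteins, was found in 4 (Hoxa2, Hoxb1, Hoxb8 and Hoxd11), and in 8.846% of all promoters. Hoxd11 thus held both motifs. Hox promoters had a median GC content of 57.67% and a median of 14.5 CpG sites, against 52.67% and 7 over all promoters. These matches are letters in a window and say nothing on binding.

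After quality filters, 81391 nuclei of 82784 barcodes remained, with 36548873 to 54500820 UMIs (unique molecular identifiers, 1 per captured transcript) and a median of 3003.5 to 4830 UMIs per nucleus in a library. Between 18 and 42 barcodes were shared by any pair of libraries. Nuclei were clustered without the Hox genes and named by marker genes, which placed 77841 nuclei (95.6%) in 22 classes, of which 20 held at least 10 nuclei in each library. The classes are rebuilt and carry the names of the study's scheme: PCT and PST for the proximal convoluted and straight tubule, thinDL, thinAL and TAL for the thin descending, thin ascending and thick ascending limb, MD for macula densa, DCT1 and DCT2 for the distal convoluted tubule, CNT for connecting tubule, CCD and MCD for principal cells of the cortical and medullary collecting duct, aIC and bIC for intercalated cells, UT for urothelium, Podo for podocytes, Mes/Per for mesangial cells and pericytes, SMC/JGC for smooth muscle and juxtaglomerular cells, Vasc for vascular cells, Myel for myeloid and TC/NK for T and natural killer cells. The name thinAL is uncertain, since its cluster 21 had more UT than thinAL markers among its leading genes. The targeted gene, Arntl, stood at 32.4 and 27.8 CPM in Ctrl ZT4 and 133 and 133 in Ctrl ZT16. In cKOt, Arntl stood at 238 and 165 CPM at ZT4 and at 242 and 213 at ZT16. It was thus not lower in the libraries labelled cKOt, but counts per gene do not separate the deleted exon from the rest of the transcript, so this value checks nothing.

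Of the 39 Hox genes, 30 had at least 200 UMIs over the 8 libraries (9 of HoxA, 8 of HoxB, 7 of HoxC and 6 of HoxD) and are described one by one. A further 5 had few, among them Hoxb1 (27 UMIs), Hoxd1 (11), Hoxd12 (5) and Hoxd13 (2). No UMI was found of Hoxa13, Hoxb13, Hoxc12 and Hoxc13, where 0 of 81391 nuclei allows a share of up to 0.00369% of nuclei with a UMI (3 counts). The last genes at the high-number end of each row, which pattern the tail end of the embryo, were thus at or near 0. Together the Hox genes gave 360661 UMIs, 0.0955% of all UMIs outside mitochondrial genes, and 72072 nuclei (88.6%) held at least 1. HoxB gave 44.0% of these UMIs, HoxA 24.5%, HoxC 17.2% and HoxD 14.2%.

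Levels are given as CPM, the gene's UMIs per 1e6 UMIs outside mitochondrial genes after summing over the nuclei of a class in a library, as mean ± SD over 8 libraries. These are UMI counts at transcript ends, so levels of different genes are set side by side as captured transcripts, without division by length. The summed level of the 39 genes was highest in MD (2524 ± 340 CPM), which senses salt at the end of the loop, and in thinDL (2335 ± 174 CPM), the water-permeable limb that runs into the medulla. These means differ by less than the SD of MD. MD was a small class, with 177 nuclei in all and 11 to 33 in a library. CCD (1679 ± 161 CPM), CNT (1613 ± 126), TAL (1541 ± 107), DCT2 (1531 ± 145) and DCT1 (1487 ± 120) formed a middle range in which neighbours do not differ beyond their spread, as did SMC/JGC (1462 ± 144), Mes/Per (1425 ± 95.3), MCD (1414 ± 181) and thinAL (1337 ± 147). aIC (1088 ± 85.2), UT (1088 ± 71.0), bIC (937 ± 94.9) and Podo (892 ± 97.0) followed, then Vasc (667 ± 39.5). The proximal tubule, which reabsorbs most of the filtrate, was the lowest epithelium, with 570 ± 45.8 CPM in PST and 553 ± 36.1 in PCT.

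Immune nuclei, which do not share the origin of the kidney epithelia, gave 229 ± 32.5 CPM in Myel and 272 ± 118 in TC/NK, or 177 CPM in Myel after removal of nuclei called as doublets. Their Hox UMIs were split much as those of all nuclei, with 23.7% HoxA, 46.8% HoxB, 14.1% HoxC and 15.4% HoxD in Myel. Hox RNA in immune nuclei may come from free RNA in the droplets or from the cells themselves. Levels at or below the higher of the 2 immune classes are called background in what follows. This cut is a CPM and is not adjusted for depth. Immune nuclei were shallower than those of PCT or MCD, as the medians below show. The same number of free UMIs makes a lower CPM in a deeper nucleus. Background is thus a label for this cut and does not show that a gene is silent. The share of nuclei with any Hox UMI depends on depth. Without thinning it was 29.6% in Myel (median 1824 UMIs outside mitochondrial genes), 28.5% in TC/NK (1641 UMIs), 87.4% in PCT (4502 UMIs) and 98.1% in MCD (3745 UMIs). After each nucleus was thinned to 1000 UMIs (1144 nuclei were too shallow), it was 18.4% in Myel and 18.7% in TC/NK, against 91.5% in MD, 87.1% in thinDL, 80.4% in CCD, 79.7% in CNT, 77.1% in TAL, 74.6% in MCD, 74.5% in Mes/Per, 47.2% in Vasc, 42.8% in PCT and 41.4% in PST. The proximal classes were again the lowest epithelia.

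The 4 clusters were placed differently along the tubule. HoxA was highest in thinDL (521 ± 57.5 CPM), Mes/Per (381 ± 25.7) and thinAL (345 ± 29.4), and lay between 178 and 294 CPM in PCT, PST, TAL, MD, DCT1, DCT2 and CNT. It fell to 43.2 ± 11.5 CPM in CCD, 31.8 ± 5.33 in MCD and 40.1 ± 10.5 in UT, each below the immune levels of 53.9 ± 17.1 (Myel) and 75.1 ± 18.2 CPM (TC/NK). HoxC was highest in MD (759 ± 141 CPM), Mes/Per (519 ± 82.7), SMC/JGC (491 ± 62.2) and Podo (421 ± 80.8), and was low in the same 3 classes, with 24.4 ± 12.5 CPM in CCD, 15.4 ± 3.76 in MCD and 18.4 ± 7.82 in UT, and also in Vasc (23.4 ± 2.58). The immune levels of HoxC were 32.3 ± 11.3 and 39.9 ± 30.0 CPM.

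HoxB differed from both in the collecting duct and the urothelium. It stood at 150 ± 18.0 CPM in PCT and 218 ± 24.9 in PST, rose to 1482 ± 99.5 in thinDL and 1088 ± 259 in MD, and stayed at 952 ± 94.6 in CCD, 973 ± 113 in MCD and 816 ± 54.2 in UT. Among the 20 classes with at least 10 nuclei in each library, podocytes held the lowest value, 79.6 ± 28.0 CPM, below both immune classes (108 ± 12.8 and 128 ± 64.4). HoxD was highest in CCD (659 ± 64.1 CPM), lay between 388 and 422 CPM in CNT, MD, DCT2, MCD and DCT1, and was 40.4 ± 3.43 in PCT and 38.4 ± 6.86 in PST, close to 34.9 ± 7.88 in Myel. As a share of Hox UMIs, HoxB and HoxD together made up nearly all in MCD (69.0% and 27.6%), CCD (56.5% and 39.3%) and UT (75.0% and 19.7%), whereas HoxA and HoxC gave 39.3% and 26.1% in PCT, and HoxC alone 46.6% in Podo.

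**Figure D1:**
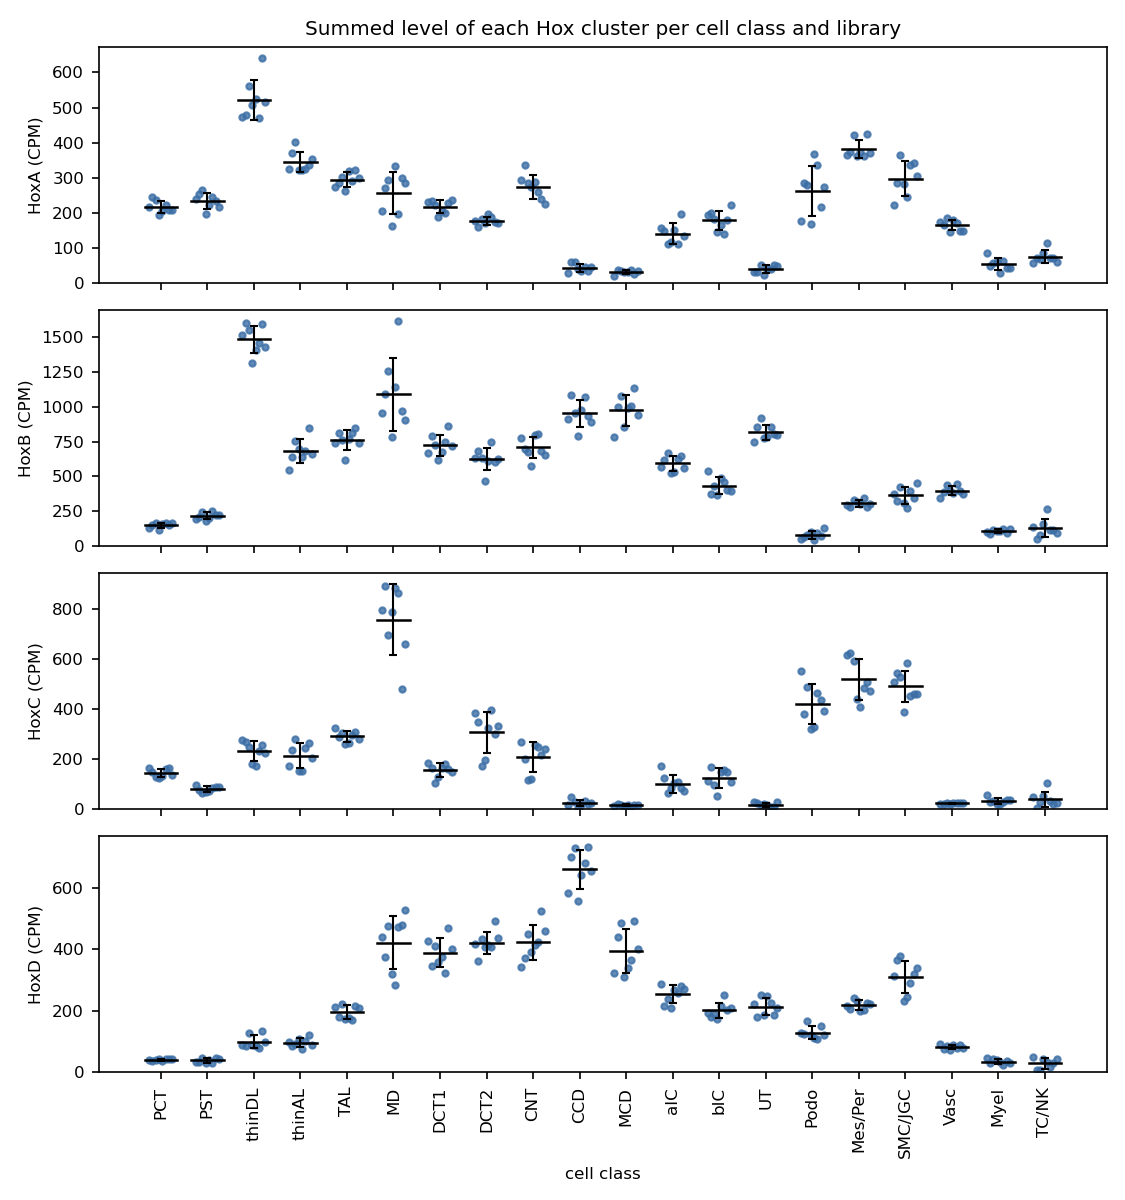
Summed level of each Hox cluster (vertical axes, CPM, each from 0) by cell class (horizontal axis); points are the 8 libraries, bars the mean ± SD. HoxA and HoxC drop to or below the immune level (Myel, TC/NK) in CCD, MCD and UT, where HoxB lies between 750 and 1135 CPM.

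Read gene by gene, 18 of the 30 described members were at or below the immune level in MCD (all 9 of HoxA, all 7 of HoxC, and Hoxd10 and Hoxd11), 17 in CCD and 16 in UT. In Podo it was 11, among them 7 of the 8 HoxB genes, and in Vasc 10, with all 7 HoxC genes. PCT had 7 and PST 5, of which 4 in each belonged to HoxD (Hoxd8 to Hoxd11). In the other classes between 1 and 4 members were this low. Hoxb8, Hoxd3 and Hoxd4 were above it in each of the 18 classes that are not immune and held at least 10 nuclei in each library.

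**Figure D2:**
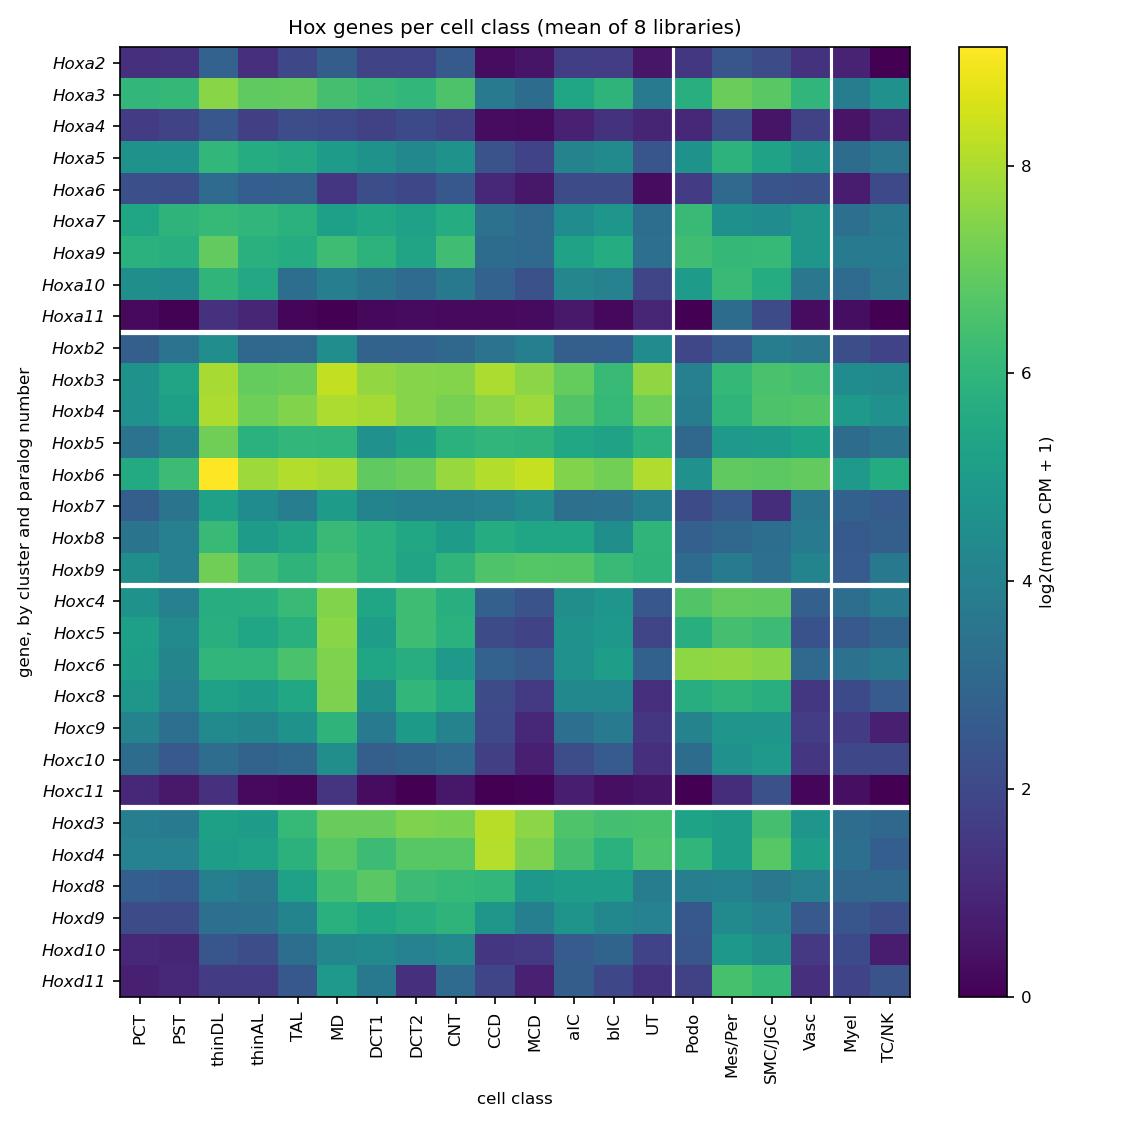
Level of the 30 described Hox genes (rows, by cluster and paralog number) in 20 cell classes (columns), as log2 of the mean CPM of 8 libraries plus 1. White lines part the clusters, and the tubule from the other kidney classes and the immune classes; the HoxA and HoxC blocks are darker in CCD, MCD and UT than elsewhere in the tubule, while Hoxb3, Hoxb4, Hoxb6, Hoxd3 and Hoxd4 are bright there.

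Few genes led in most places. Hoxb6 was among the 3 highest members in 17 of 22 classes, Hoxb4 in 13 and Hoxb3 in 12. In thinDL Hoxb6 reached 563 ± 53.4 CPM, the highest value of any member, and Hoxb3 reached 313 ± 83.4 in MD. CCD was led by Hoxd3 (281 ± 32.9 CPM) and Hoxd4 (280 ± 58.3), and MCD by Hoxb6 (323 ± 32.6). Hoxa3, Hoxa9 and Hoxb6 led in PCT with 65.7 ± 7.40, 56.1 ± 9.33 and 46.7 ± 4.71 CPM, of which the value of Hoxb6 was close to its immune level of 46.8 CPM. The mesenchymal and glomerular classes were led by Hoxc6, with 198.9 ± 37.6 CPM in Mes/Per, 192 ± 34.3 in Podo and 183 ± 49.4 in SMC/JGC. Of the group-11 paralogs known from kidney formation, Hoxd11 was found mainly in Mes/Per (88.7 ± 8.39 CPM), where its lowest library held 80.6 CPM. It was at most 1.07 CPM on average in PCT, PST and MCD. Hoxa11 (308 UMIs in all) was highest in Mes/Per too, with 8.63 CPM over the pooled libraries, and Hoxc11 (228 UMIs) in SMC/JGC with 3.68.

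As a description over classes, which share libraries and overlapping transcripts, Pearson's r of log2(CPM + 1) over the 20 classes had a median of 0.92 among 21 pairs of HoxC genes (0.45 to 0.99), 0.81 among 28 pairs of HoxB (0.54 to 0.99), 0.74 among 36 pairs of HoxA (-0.07 to 0.98) and 0.74 among 15 pairs of HoxD (0.19 to 0.97). The lowest values in HoxA and HoxD were those of Hoxa7 with Hoxa11 and of Hoxd4 with Hoxd11, so not all members of these 2 clusters had like profiles. Hoxa11, with 308 UMIs in all, was at or below background in 12 classes that are not immune. Its r thus rests largely on low counts. Between clusters, medians were 0.64 for HoxA with HoxC, 0.49 for HoxB with HoxD, 0.28 for HoxC with HoxD, 0.08 for HoxA with HoxD, 0.04 for HoxA with HoxB and 0.03 for HoxB with HoxC. The 32 pairs of paralogs, which share their number and not their cluster, had a median of 0.28, from -0.22 (Hoxa4 and Hoxd4) to 0.87 (Hoxa9 and Hoxc9). In paralog group 4, r was 0.67 for Hoxb4 with Hoxd4, 0.55 for Hoxa4 with Hoxc4 and 0.08 for Hoxb4 with Hoxc4. The profiles closest to each other were those of Hoxc5 and Hoxc8 (0.99), which overlap on the genome, and of Hoxb5 and Hoxb6 (0.99), which do not overlap each other but share an antisense gene.

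Segments were compared on counts summed per class and library with the quasi-likelihood test of edgeR, with the library as a block and Benjamini-Hochberg adjustment over all genes tested. The question was which members differ between segments repeatedly over 8 mice. With the large differences between cell types a high share of all genes passes this test. A member at background on one side could pass the count filter through the other side alone. Its direction then follows from the filter and its fold is the distance of the other side from background, so the counts and medians below describe the members tested and support nothing by themselves.

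Principal cells of the collecting duct had more HoxB and HoxD and less HoxA and HoxC RNA than the proximal tubule. Of 30 members tested in the comparison of CCD and MCD with PCT and PST, 28 passed at an adjusted p of 0.05, against 67.6% of all genes, 12 higher (29.2% of all genes) and 16 lower (38.4%). Their median log2 fold change was -1.70, against -0.09 over all genes. The higher ones were 8 of 8 HoxB genes and Hoxd3, Hoxd4, Hoxd8 and Hoxd9, and the lower ones 9 of 9 HoxA and 7 of 7 HoxC genes. Hoxd10 and Hoxd11 had log2 fold changes of 0.53 ± 0.35 (SE) and 0.45 ± 0.35 and did not pass.

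Hoxd3 shows the rise most clearly. It lay between 10.8 and 16.9 CPM in PCT (median 14.9) and between 9.34 and 16.0 in PST (12.9), and between 240 and 335 CPM in CCD (285) and between 149 and 231 in MCD (188). No library of the collecting duct came near the proximal range, and the fold was 13.7 (log2 fold change 3.77 ± 0.07 SE, edgeR adjusted p = 2.77e-98). Hoxd4 was 10.8-fold higher and its paralog Hoxb4 5.55-fold higher. Hoxb4 lay between 15.9 and 30.9 CPM in PCT, around the immune level, and between 145 and 227 in CCD. Of the other higher members, Hoxb7 was at background in PCT, and Hoxd8 and Hoxd9 in PCT and PST. Among the lower members, Hoxa3 lay between 57.9 and 79.6 CPM in PCT (median 64.0) and between 9.92 and 18.9 in CCD (11.4), 8.06-fold lower in the test of all 4 classes (log2 fold change -3.01 ± 0.10 SE, adjusted p = 1.53e-63). Hoxc4 fell 4.53-fold, from 19.4 to 30.0 CPM in PCT to 0 to 16.2 in CCD. Since HoxA and HoxC were at the background level in CCD and MCD, but for Hoxc9 in CCD, their folds measure the distance of the proximal tubule from that level. The call of Hoxb2 (log2 fold change 0.34 ± 0.16 SE, adjusted p = 0.0484) was lost under 6 of the alternatives, among them without Ctrl ZT4 replicate 1 (0.31, adjusted p = 0.0949), Ctrl ZT4 replicate 2 (0.33, adjusted p = 0.0912), Ctrl ZT16 replicate 2 (0.24, adjusted p = 0.213) or cKOt ZT16 replicate 1 (0.19, adjusted p = 0.336).

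In the loop and distal tubule HoxB and HoxD were already higher, while the summed levels of HoxA and HoxC stayed above background. TAL, DCT1 and DCT2, which take up salt without water, were compared with PCT and PST, and 25 of 30 members passed (72.6% of all genes), 20 higher (33.5%) and 5 lower (39.1%), with a median of 0.83 over the members and -0.04 over all genes. The 6 HoxD genes were higher, of which Hoxd8 to Hoxd11 were at background in PCT and PST and Hoxd3 (2.94 ± 0.07 SE on the log2 scale) and Hoxd4 (2.17 ± 0.07) above it, as were 7 of 8 HoxB genes (up to 2.57 for Hoxb4) and 5 of 7 HoxC genes (up to 2.83-fold for Hoxc4). Of the HoxB genes, Hoxb4 and Hoxb7 were at background in PCT but not in PST. Hoxd10, barely found in PCT (at most 1.66 CPM in a library), lay between 11.5 and 24.8 CPM in DCT1. Of HoxA, Hoxa2 (0.75 ± 0.19 SE) and Hoxa3 (0.17 ± 0.06) were higher and Hoxa7, Hoxa9 and Hoxa10 lower, with Hoxa10 at -1.38 ± 0.09. Hoxb2 (-0.34 ± 0.12) and Hoxc11 (-2.69 ± 0.42) were lower as well. Hoxa10 and Hoxc11 were at or below background in TAL, DCT1 and DCT2, so their folds measure the distance of the proximal tubule from that level. The small changes of Hoxa3 and Hoxb2 each lost their call under 3 alternatives. Hoxa3 had 0.09 (adjusted p = 0.211) without cKOt ZT16 replicate 1 and 0.10 (adjusted p = 0.161) without Ctrl ZT16 replicate 2, and Hoxb2 -0.21 (adjusted p = 0.134) without cKOt ZT16 replicate 2 and -0.29 (adjusted p = 0.0517) without Ctrl ZT16 replicate 1.

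The summed HoxA and HoxC levels lay above background in TAL, DCT1 and DCT2 and below it in CCD and MCD. Against TAL, DCT1 and DCT2, 25 of 28 members passed in CCD and MCD (54.0% of all genes), 7 higher (24.9%) and 18 lower (29.1%), with a median of -2.01 over the members and -0.02 over all genes. The 8 HoxA and 6 HoxC genes tested were among the lower ones. All but 1 of the described HoxA and HoxC genes were at background in CCD and all in MCD, so their folds measure the distance of the distal classes from that level. This leaves out Hoxa10, which was at background in TAL, DCT1 and DCT2 as well. Hoxc5 lay between 44.2 and 99.8 CPM in DCT2 and between 0 and 8.92 in CCD. Of HoxB, 5 of 8 genes were higher, by 0.20 ± 0.06 SE (Hoxb3) to 0.80 ± 0.12 (Hoxb9) on the log2 scale. The call of Hoxb3 was lost with MCD as cluster 11 alone, the larger of its 2 clusters (0.08, adjusted p = 0.257), and Hoxb4, Hoxb7 and Hoxb8 did not pass (-0.10 ± 0.07, 0.09 ± 0.13 and -0.19 ± 0.09 SE). Of HoxD, Hoxd3 (0.83 ± 0.06) and Hoxd4 (1.27 ± 0.06) were higher, while Hoxd8 (-0.84 ± 0.09) and Hoxd9 (-0.90 ± 0.10) were lower. Hoxd10 and Hoxd11 were called lower too, but were at background in CCD and MCD, and Hoxd11 also in DCT2. CNT, which lies between and entered no test, held 275 ± 34.3 CPM of HoxA and 209 ± 59.6 of HoxC, on the side of the distal tubule.

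**Figure D3:**
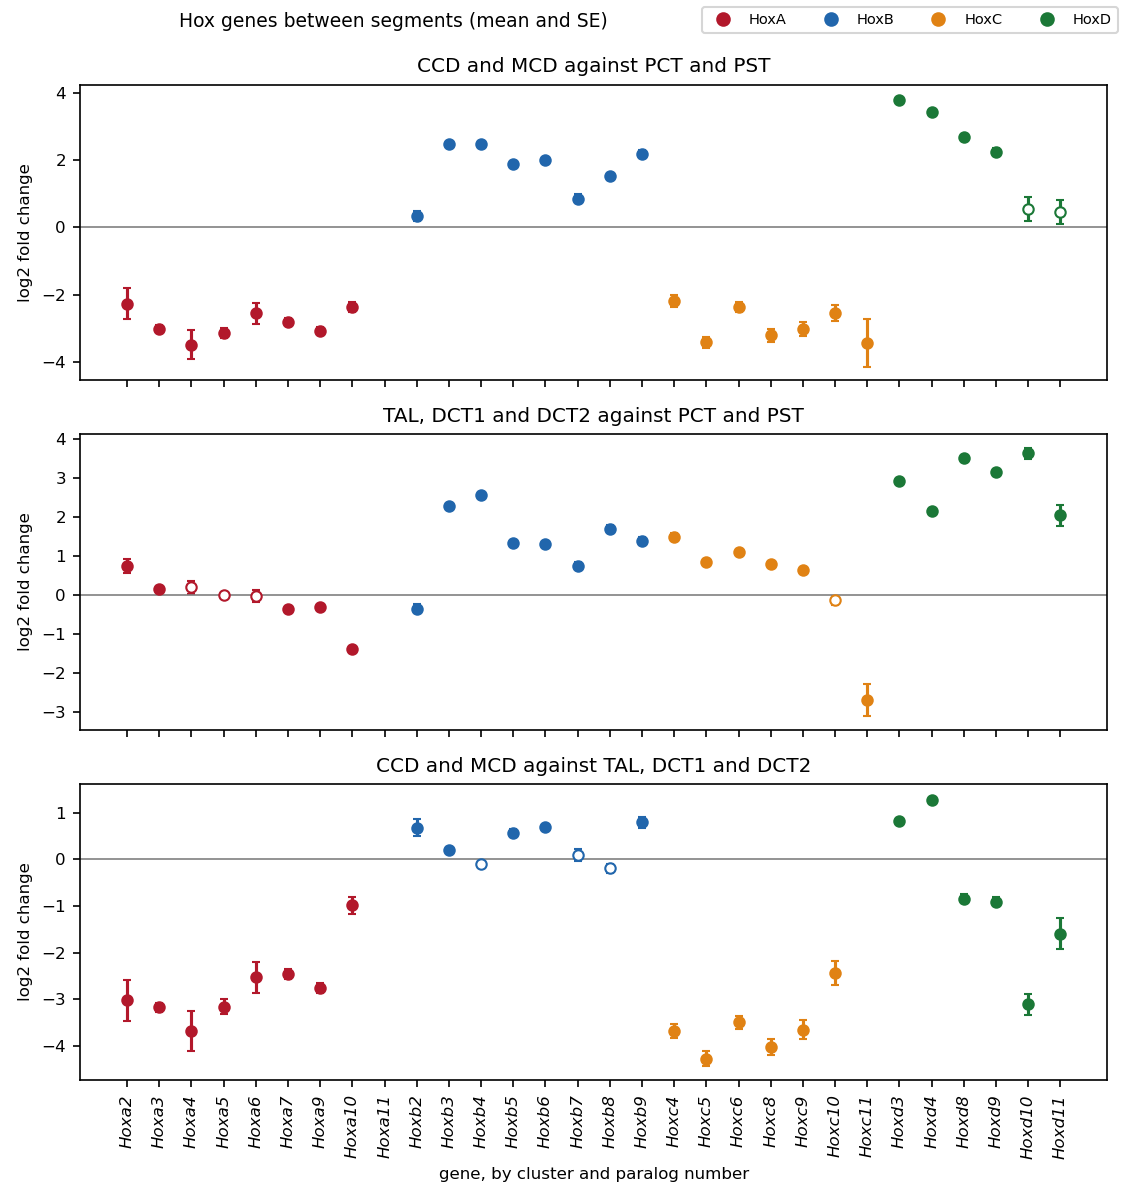
Log2 fold change (vertical axes) with its SE for the 30 described Hox genes (horizontal axis, by cluster and paralog number) in 3 comparisons of segments by edgeR over 8 libraries; filled points have an adjusted p of at most 0.05, open points do not, and genes under the count filter have no point. HoxA and HoxC lie below 0 in both comparisons of the collecting duct, HoxD at or above 0 against the proximal tubule.

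Within the collecting duct, HoxD was lower in the medulla than in the cortex. Of 15 members tested in MCD against CCD, 6 passed (34.2% of all genes), 1 higher (17.9%) and 5 lower (16.3%), a share near that of all genes in all and above it for the lower ones. The median was -0.28 over the members and 0.03 over all genes. The lower ones were 4 of 4 HoxD genes, Hoxd8 (-1.23 ± 0.15 SE, 2.35-fold), Hoxd9 (-0.91 ± 0.18), Hoxd4 (-0.79 ± 0.09) and Hoxd3 (-0.58 ± 0.09), and Hoxb3 (-0.44 ± 0.09), whereas Hoxb6 was higher (0.26 ± 0.08, adjusted p = 0.00858). Hoxd8 lay between 54.0 and 80.2 CPM in CCD and between 11.9 and 49.6 in MCD, without overlap. MCD was made of clusters 11 and 23, of which cluster 23 scored nearly as high for the CCD markers (mean z 3.209) as for those of MCD (3.476). The 3 clusters formed a series in which Hoxd4 stood at 287 CPM in cluster 28 (CCD), 171 in cluster 23 and 147 in cluster 11, and Hoxd3 at 280, 192 and 181. With MCD taken as cluster 11 alone, 10 members passed. The share of all genes that passed in that fit is not given here, so this count is not read as a result on the members.

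Intercalated cells, the acid and base secreting cells that lie among the principal cells, had more HoxA and HoxC and less HoxB and HoxD RNA than these. Against CCD and MCD, 20 of 22 members passed in aIC and bIC (50.1% of all genes), 10 higher (23.7%) and 10 lower (26.5%), with a median of -0.04 over the members as over all genes. The 5 HoxA and 5 HoxC genes tested were the higher ones, measured from background in the principal cells, and 7 of 8 HoxB and 3 of 4 HoxD genes were lower, by up to -1.59 (Hoxd4). Hoxa3 lay between 24.97 and 56.3 CPM in aIC and between 44.8 and 89.4 in bIC, above every library of CCD (9.92 to 18.9) and MCD (4.03 to 12.0), and was 4.84-fold higher (adjusted p = 1.12e-37). After removal of nuclei called as doublets, which could mix cell types, Hoxa3 stood at 40.0 CPM in aIC and 58.3 in bIC against 9.20 in CCD and 6.92 in MCD. Hoxb9 and Hoxd9 did not pass (-0.23 ± 0.14 and 0.15 ± 0.13 SE), and the call of Hoxd8 (-0.34 ± 0.12) was lost with MCD as cluster 11 alone (-0.20, adjusted p = 0.174) and without Ctrl ZT16 replicate 1 (-0.26, adjusted p = 0.0914).

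Outside the tubule, members of each cluster differed between a mesenchymal and a vascular class. Of 29 members tested in Mes/Per against Vasc, 24 passed (59.0% of all genes), 17 higher (29.0%) and 7 lower (30.0%), with a median of 1.08 over the members and -0.01 over all genes. The 6 HoxC genes tested were higher in Mes/Per, as were 7 of 9 HoxA and 4 of 6 HoxD genes, and 6 of 8 HoxB genes and Hoxa7 were lower. Hoxb7, among these, was at or below background in Mes/Per. All HoxC genes, Hoxa11, Hoxd10 and Hoxd11 were at or below background in Vasc, so their folds measure the distance of Mes/Per from that level. Hoxd11 had at most 2.503 CPM in any Vasc library and at least 80.6 in every Mes/Per library. Hoxc6 lay between 4.29 and 11.5 CPM in Vasc, around the immune level, and between 140 and 262 in Mes/Per. The call of Hoxa7 (-0.25 ± 0.11) was lost under 7 alternatives, among them the omission of Ctrl ZT4 replicate 1 (-0.22, adjusted p = 0.0943), cKOt ZT4 replicate 2 (-0.22, adjusted p = 0.0921), Ctrl ZT16 replicate 1 (-0.25, adjusted p = 0.0649) and cKOt ZT16 replicate 1 (-0.26, adjusted p = 0.0517). That of Hoxb5 (-0.35 ± 0.11) was lost without Ctrl ZT16 replicate 1 (-0.28, adjusted p = 0.0537), and those of Hoxd3 and Hoxb3 under 2 alternatives and 1 alternative, none of which left out a library.

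The groups were then compared, to ask whether Hox levels depend on time of day or on Bmal1 in the tubule. A model of the 4 groups with 2 libraries each was fitted to all genes. In sums over all nuclei, 0 of 31 members passed in any of the 4 comparisons, by edgeR at an adjusted p of 0.05. Of all genes, 0.208% passed between ZT16 and ZT4 in Ctrl, 0.00955% between time points in cKOt, 0.446% between cKOt and Ctrl at ZT4 and 0.143% at ZT16. At an unadjusted p under 0.05 there were 4, 4, 1 and 1 of 31 members in the same order, against 10.2%, 8.79%, 8.64% and 6.22% of all genes. DESeq2 called 0, 0, 1 and 0 members. Of all genes it called 313, 222, 410 and 200, where edgeR called 44, 2, 94 and 30. In such sums, fewer cells of a type and less RNA per cell cannot be told apart, and the share of MCD ranged from 2.36% to 6.68% of nuclei between libraries. The difference of the time effects between genotypes was called for 0 of 31 members as well, with an unadjusted p under 0.05 for Hoxb9 alone (-0.69 ± 0.28 SE on the log2 scale by edgeR), against 4.31% of all genes.

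Hoxb9, a gene towards the high-number end of HoxB, was the member closest to the limit. Over all nuclei it had 929 and 1267 UMIs in Ctrl ZT4, 2406 and 1784 in cKOt ZT4, 1928 and 1510 in Ctrl ZT16, and 1955 and 1882 in cKOt ZT16. The 2 Ctrl ZT4 libraries were the lowest. At ZT4, Hoxb9 was 0.91 ± 0.20 (SE) higher in cKOt on the log2 scale, which did not pass in edgeR (adjusted p = 0.123). It passed in DESeq2 (0.92, adjusted p = 0.00344) and in edgeR with no filter on low counts (0.91, adjusted p = 0.0156). These settings called 410 and 316 of all genes, against 94 in the main fit. Without cKOt ZT4 replicate 2 the difference was 1.22.

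Within cell types, members were called rarely. Over 21 classes and clusters, 2 of 424 tests of a member in a class passed between ZT16 and ZT4 in Ctrl (0.322% of all such tests), 0 of 422 in cKOt (0.148%; 0 to 4 under the alternatives), 1 of 415 between cKOt and Ctrl at ZT4 (0.27%) and 0 of 432 at ZT16 (0.151%; 0 to 3 under the alternatives). At an unadjusted p under 0.05 there were 53, 29, 27 and 30 in the same order by edgeR, against 8.11%, 7.15%, 6.32% and 5.42% of all such tests. Where members were called, their shares were thus near those of all genes. The counts of 2 and 1 also moved under the alternatives, as given in the closing section. The time effect did not differ between genotypes for any of 444 tests of a member in a class at this limit (29 at an unadjusted p under 0.05, against 4.29% of all such tests), and the smallest adjusted p was 0.318, for Hoxb9 in Mes/Per.

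The member called between genotypes was Hoxb9 in PCT. It stood at 4.56 and 4.16 CPM in Ctrl ZT4 and at 49.0 and 27.1 in cKOt ZT4, an 8.97-fold difference (log2 fold change 3.16 ± 0.32 SE, edgeR adjusted p = 0.00133). The Ctrl ZT16 libraries held 12.5 and 12.8 CPM and the cKOt ZT16 libraries 32.5 and 38.9, so that the genotypes did not overlap at either time. At ZT16 the difference was 1.57 ± 0.28 (adjusted p = 0.062) and did not pass. The share of PCT nuclei with a Hoxb9 UMI was 1.74% and 2.05% in Ctrl ZT4, 7.58% and 4.55% in Ctrl ZT16, 18.1% and 16.5% in cKOt ZT4, and 15.2% and 15.0% in cKOt ZT16. The immune level of Hoxb9 was 12.2 CPM, so the Ctrl values in PCT lay below it at ZT4, with 33 and 32 UMIs, and just above it at ZT16. The neighbouring Hoxb8 in the same nuclei showed no such split, with 8.43 and 10.7 CPM in Ctrl ZT4 and 8.58 and 12.9 in cKOt ZT4, and Hoxb7 had 4.70 and 4.94 against 4.98 and 6.36.

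Which clusters made up PCT differed between the groups, and the part of this in the difference was not tested. Cluster 6 held 75.6% and 87.0% of PCT nuclei in Ctrl ZT4, cluster 5 held 71.3% in cKOt ZT4 replicate 1, cluster 13 held 56.1% in replicate 2, and cluster 7 held 64.1% and 56.3% in cKOt ZT16. Within cluster 5, Hoxb9 had 9.68 and 15.8 CPM in Ctrl ZT4 (5 and 3 UMIs) and 52.1 and 34.4 in cKOt ZT4, and 44.3 and 25.6 in Ctrl ZT16 against 44.9 and 52.1 in cKOt ZT16. The genotypes did not overlap at either time, but the highest Ctrl ZT16 value lay within 1 CPM of the lowest of cKOt ZT16. Within cluster 6, with 34 and 38 nuclei and 6 UMIs in each cKOt ZT4 library, it had 3.90 and 3.76 CPM in Ctrl ZT4 against 56.8 and 33.9. At ZT16, where this cluster held 2 and 15 nuclei of the cKOt libraries, no Hoxb9 UMI was found in them, and the Ctrl libraries had 1 and 5 UMIs. Over all proximal nuclei together, with the unnamed cluster 14 of proximal nuclei, it had 6.67 and 6.27 CPM in Ctrl ZT4, 32.5 and 20.7 in cKOt ZT4, 13.9 and 10.4 in Ctrl ZT16, and 24.8 and 25.3 in cKOt ZT16, again without overlap of the genotypes. Under the alternatives run for it, including each library left out in turn, the log2 fold change in PCT was between 2.63 and 3.55 and passed each time. Where a library of a compared group was left out, here and in the other group comparisons, the lone sample of that group was assumed to vary like the other groups.

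In other classes Hoxb9 did not pass. In PST it stood at 8.42 and 7.40 CPM in Ctrl ZT4 and 24.0 and 16.2 in cKOt ZT4 (1.36 ± 0.25 SE, adjusted p = 0.0629). PST too was made of different clusters by group, with cluster 16 holding 59.6% and 64.4% of its nuclei in Ctrl ZT4, cluster 9 60.4% in cKOt ZT4 replicate 1 and cluster 26 65.9% in replicate 2. Within its cluster 12, Hoxb9 had 28.6 and 19.4 CPM in Ctrl ZT4 (15 and 9 UMIs) and 44.9 and 29.9 in cKOt ZT4. At ZT16 the genotypes overlapped there, with 33.9 and 14.5 CPM in Ctrl (6 and 10 UMIs) and 38.7 and 27.4 in cKOt. Within cluster 9, it had 9.03 and 0 CPM in Ctrl ZT4 (26 and 2 nuclei) and 10.0 and 12.8 in cKOt ZT4. In Mes/Per, Hoxb9 stood at 5.38 and 6.70 CPM in Ctrl ZT4 against 23.3 and 18.2 (1.75 ± 0.31, adjusted p = 0.0625). In Vasc it stood at 11.8 and 11.8 against 21.2 and 19.5 (0.78 ± 0.25, adjusted p = 0.699). The Ctrl ZT4 values of PST, Mes/Per and Vasc lay below the immune level of 12.2 CPM. At ZT16 the difference was 0.61 ± 0.24 in PST (adjusted p = 0.524) and 0.10 ± 0.24 in Vasc, and had the other sign in Mes/Per (-0.38 ± 0.29), DCT1 (-0.20 ± 0.24) and DCT2 (-0.32 ± 0.25), none of which passed. In TAL only 1 cKOt ZT4 library stood apart, with 113 CPM, against 56.0 in the other and 49.7 and 59.1 in Ctrl ZT4. In the collecting duct, MCD had 71.9 and 85.2 CPM in Ctrl ZT4 and 134 and 78.1 in cKOt ZT4 (0.44 ± 0.28, adjusted p = 0.995).

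Between time points in Ctrl, Hoxc4 and Hoxc5 were lower at ZT16 in DCT2, the late distal convoluted tubule. Hoxc4 stood at 104 and 87.1 CPM at ZT4 and at 32.0 and 45.6 at ZT16 (-1.29 ± 0.25 SE on the log2 scale, edgeR adjusted p = 0.0113), and Hoxc5 at 99.8 and 89.1 and at 44.2 and 47.5 (-1.01 ± 0.23, adjusted p = 0.0372). In cKOt, Hoxc4 had 86.8 and 119 CPM at ZT4 and 64.4 and 80.2 at ZT16, and Hoxc5 had 77.3 and 98.6 and 71.3 and 94.7, with overlap for Hoxc5. Their neighbours did not pass in DCT2: Hoxc8 (-0.93 ± 0.23, adjusted p = 0.0682) and Hoxc6 (-0.96 ± 0.25, adjusted p = 0.0796). Hoxc4 in CNT had -1.28 ± 0.33 (adjusted p = 0.0854). Other decreases in Ctrl that did not pass included those of Hoxc4 in thinDL (-0.93 ± 0.28, adjusted p = 0.372), of Hoxc8 in CNT (-1.04 ± 0.33, adjusted p = 0.223) and of Hoxc5 in bIC (-1.41 ± 0.43, adjusted p = 0.663), DCT1 (-0.79 ± 0.25, adjusted p = 0.16), CNT (-0.86 ± 0.30, adjusted p = 0.311) and thinDL (-0.89 ± 0.27, adjusted p = 0.361). The call of Hoxc5 was lost without any 1 of the 4 Ctrl libraries (adjusted p = 0.309 and 0.106 without Ctrl ZT4 replicate 1 or 2, adjusted p = 0.243 and 0.0971 without Ctrl ZT16 replicate 1 or 2), and that of Hoxc4 without Ctrl ZT4 replicate 1 (-1.14, adjusted p = 0.176) or Ctrl ZT16 replicate 1 (-1.02, adjusted p = 0.202).

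**Figure D4:**
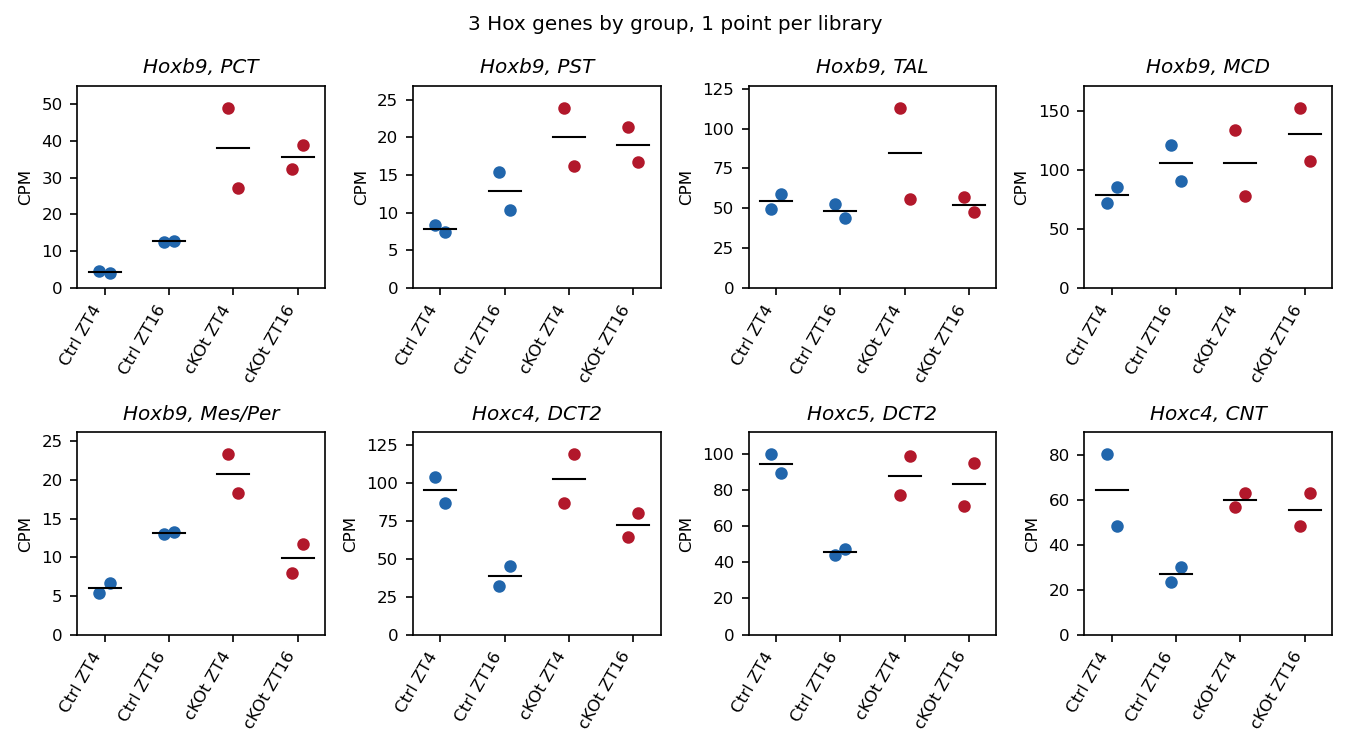
CPM (vertical axes, from 0) of Hoxb9, Hoxc4 and Hoxc5 in the cell classes named above each panel, by group (horizontal axis); points are libraries (blue Ctrl, red cKOt), bars the mean of the 2. Hoxb9 lies at 4.16 to 12.8 CPM in the 4 Ctrl libraries of PCT and at 27.1 to 49.0 in the 4 cKOt libraries, and Hoxc4 in DCT2 is lowest in Ctrl ZT16.

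Partners of the Hox genes were followed by fixed lists. Of 9 cofactors of the TALE homeobox family, which bind DNA together with Hox proteins, 0 passed in any of the 4 comparisons of groups over all nuclei. Of all genes, 0.00955% to 0.446% passed in these 4, so 0 calls in this or the other short lists are near the share of all genes. Meis2 was highest in Vasc (6842 ± 274 CPM), Meis1 in Mes/Per (940 ± 93.7) and Pbx3 in MD (1210 ± 367). Between segments, 2 of 8 cofactors were higher and 2 lower in CCD and MCD than in PCT and PST, where 29.2% of all genes were higher and 38.4% lower, and 1 was higher and 4 lower in TAL, DCT1 and DCT2 than in PCT and PST (33.5% and 39.1% of all genes). Of 13 chromatin regulators of Hox loci, among them Kmt2a and the Polycomb genes, 0 passed between groups, and 4 were higher and 4 lower in the collecting duct than in the proximal tubule, near the same 29.2% and 38.4%. Of 18 noncoding RNAs and neighbours of the clusters, 15 were in the tables and 11 or 12 were tested between groups. Halr1, an RNA beside HoxA, was lower at ZT16 in Ctrl (-1.28 ± 0.19 SE, edgeR adjusted p = 0.0445), and no other passed. Hoxb3os, antisense to Hoxb3, was highest in PST (105 ± 17.51 CPM). In the collecting duct against the proximal tubule 4 of 11 of these RNAs were higher and 6 lower, against 29.2% and 38.4% of all genes. Of 14 kidney partners and targets, 11 or 12 were tested between groups and 0 passed. In CCD and MCD, 6 of 9 tested were higher and 1 lower than in PCT and PST, against 29.2% and 38.4% of all genes. Gata3, a factor of the ureteric lineage, was highest in UT (583 ± 124 CPM) and Pax2 in thinAL (2518 ± 467).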

How the data were processed

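Nuclei from frozen kidney cross-sections of 8 mice were sorted and sequenced with the 10x Chromium 3′ chemistry. The deposited values are raw UMI counts per gene and barcode, made by the authors with bcl2fastq 2.20 and Cell Ranger 7.1.0; the reference is mm10 according to the methods but GRCm39 in the labels, and the use of introns or strand in counting is not given in the sources consulted. Gene positions were joined by Ensembl identifier.

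Nuclei needed 500 genes, 800 UMIs and a mitochondrial share of 2% or less, as in the study, and 4367 nuclei (5.37%) that Scrublet called as doublets stayed in. Seurat 5.3.0 clustered them on 2000 variable genes without the Hox genes (1000 principal components, 20 neighbours, resolution 2.2), and clusters were named where markers had a mean z of at least 0.9 and at least 3 were 2-fold above the other nuclei. Classes are rebuilt, so shares may differ from the study's, and PST is larger here. The class thinAL was not compared between groups as a class, since its cluster 21 had more UT than thinAL markers among its leading genes. Its clusters 21 and 35 were compared by number.

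Counts summed per library, or per class and library, were tested with edgeR 4.0.16 (quasi-likelihood, Benjamini-Hochberg adjusted p of 0.05 over all genes). Group comparisons kept genes with at least 5 UMIs in both replicates of a group, and segment comparisons used the library as a block and genes with at least 5 UMIs in at least 8 class sums. The scripts were tested on simulated data. Every member is counted, those with at least 200 UMIs are described by class, called members are named, and so are the 3 highest members of a class and the most abundant genes of other lists. Hoxb7 and Hoxb8 in PCT and the clusters within PCT were added after values were seen. The members and lists were chosen with earlier results of these data known. Replicates of a group differed beyond sampling noise. The labels do not tie replicate numbers to a shared litter or day, so the numbers were not used to pair mice. Intervals and floors cover counting error only. No filter, doublets removed and leaving out each library were run as alternatives throughout. DESeq2 1.42.0 was run over all nuclei only, and another scaling over all nuclei and between segments. The clustering with 50 principal components was used between segments only, so calls within cell types were not checked under it. Some single results are not reported here.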

Additional observations from a re-analysis of the deposited data

How the results depend on the processing

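With 2 mice per group, the group comparisons carry little precision, and counts of called members move with the filter and with single libraries, whereas the segment comparisons rest on 8 mice. Of the single-gene results recomputed under the alternatives, 1750 kept their direction and their side of the limit, 36 lost their call, 3 gained one and 0 changed direction. The cause of the changes was not tested.

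Over all nuclei at ZT4, cKOt against Ctrl gave 0 members, but 1 with DESeq2 and 1 with no filter on low counts, and 0 to 1 when single libraries were left out. Without the filter, calls over all genes and all nuclei also rose, from 44 to 264 between time points in Ctrl and 2 to 162 in cKOt. They rose from 94 to 316 between genotypes at ZT4 and from 30 to 168 at ZT16. The share of all tests called under the alternatives within cell types is not given here, so the member counts there are not read as particular to Hox genes. Within cell types, no filter gave 7 in place of 2 calls of members between time points in Ctrl and 4 in place of 0 in cKOt. Between genotypes it gave 4 in place of 1 at ZT4 and 3 in place of 0 at ZT16. Leaving out single libraries gave 0 to 5, 0 to 1, 1 to 4 and 0 to 1. With the replicate number as a block (replicate block), 0 members passed over all nuclei in each comparison, where 22, 2, 97 and 29 of all genes did. Within cell types it gave 3, 0, 2 and 0 members. The deviations of same-numbered mice correlated at -0.18, 0.17, 0.32 and 0.33 in the 4 comparisons. Crossing the numbers in the first gave 0 calls of members over all nuclei, where 96 of all genes passed. MCD as cluster 11 alone, an alternative added after seeing the data, gave 10 in place of 6 members against CCD. The share of all genes that passed in that fit is not given here. Removing doublets lowered the summed level in Myel from 229 to 177 CPM. Thinning lowered the mean share of nuclei with a Hox UMI from 98.4% to 75.2% in MCD, 98.4% to 77.2% in TAL, 87.1% to 42.6% in PCT and 29.7% to 18.8% in Myel. Without single libraries the segment counts lay at 26 to 28, 24 to 25, 25 to 26, 6 to 8, 19 to 20 and 22 to 25, in the order of the report.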

Other observations

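Some clusters stood apart from their class in Hox levels, given here as pooled CPM with no test and chosen after their values were seen. Cluster 33 of thinDL (826 nuclei, led by Corin and Uncx) held Hoxc6 at 161 and Hoxb6 at 804 CPM, whereas clusters 25 and 40 of the same class held Hoxc6 at 19.0 and 19.4 and Hoxb6 at 443 and 448. Cluster 32 of Vasc (830 nuclei, led by Lef1 and Slc14a1) held Hoxb9 at 49.7 and Hoxd3 at 65.8 CPM, against 12.8 and 14.6 for Hoxb9 and 20.0 and 26.7 for Hoxd3 in clusters 0 and 3. An unnamed cluster of 314 nuclei (cluster 43, led by Kcnmb2 and Wnt16) held Hoxc4 at 248, Hoxc6 at 226, Hoxb6 at 262 and Hoxd11 at 65.4 CPM.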
